A study of Mus musculus with 3 samples.

Results

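The genes *Cd209a*, *Cd209d*, *Cd209e*, *Itgam*, *Sirpa*, *Clec4a1*, *Clec4b1* and *Cd300a* were chosen by name, as lectins of the CD209 group and genes for surface proteins of cDC2s, and they made up 8 of the 32285 features in the deposited matrices. CD209a is a mouse relative of DC-SIGN, a C-type lectin for glycans bearing mannose or fucose, and *Cd209d* and *Cd209e* encode its relatives SIGNR3 and SIGNR4. *Itgam* encodes CD11b, which pairs with CD18 as a complement receptor, and *Sirpa* encodes the CD47 receptor on which cDC2s were sorted. *Clec4a1* and *Clec4b1* encode C-type lectins of the DCIR and DCAR group, and CD300a is an inhibitory receptor for phosphatidylserine and phosphatidylethanolamine.

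XCR1+ cDC1s, SIRPα+ cDC2s and CD135+ CD43+ pre-cDCs were sorted from MCA205 LA-OVA tumours grown on both flanks of co-housed mice, and the cells of each genotype were pooled into 1 single-cell library. The wild-type, *sGsn-/-* and *sGsn-/- Clec9a-/-* libraries held 12763, 8173 and 9273 barcodes with medians of 13210, 11954 and 10649 UMIs, and libraries are given in this order throughout. The authors' cDC1 table listed 2316, 1712 and 1778 of these barcodes in 12 clusters, and 24403 barcodes lay outside it. With 1 library per genotype, no difference between genotypes was tested, and intervals on levels and shares cover counting error alone. *Clec9a* gave 5502, 3970 and 2 UMIs in the tabled cDC1s, or 168.4, 168.5 and 0.0931 CPM, which are a gene's UMIs scaled to all UMIs of the same barcodes. Only the *sGsn-/- Clec9a-/-* library lacked *Clec9a*, while gene-level counts of *Gsn* do not test the deletion of its secreted form.

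The 3 lectin genes lie together on the minus strand of chromosome 8 (GRCm38), with *Cd209a* (ENSMUSG00000031494) at 3743397–3748984, *Cd209e* (ENSMUSG00000040197) at 3847965–3854309 and *Cd209d* (ENSMUSG00000031495) at 3871824–3878555. *Itgam* (ENSMUSG00000030786) lies on the plus strand of chromosome 7 at 128062640–128118491, beside *Itgax*, and *Sirpa* (ENSMUSG00000037902) on the plus strand of chromosome 2 at 129592835–129632228. *Clec4a1* (ENSMUSG00000049037) at 122921848–122934619 and *Clec4b1* (ENSMUSG00000030147) at 123049962–123071555 lie on the plus strand of chromosome 6, with *Clec4a3* and *Clec4a4* between them. *Cd300a* (ENSMUSG00000034652) lies on the plus strand of chromosome 11 at 114890041–114904654. *Itgam* overlaps *Gm49368* on the same strand, a gene absent from the matrices, and 465 of 1547 stretches of 50 bases at its transcript ends (30.1%) also occur in another gene's transcripts. For *Clec4b1* 68 of 527 such stretches (12.9%) are shared with *Clec4a2*, and the other 6 genes share none.

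The tabled cDC1s held 19.5% of all UMIs in the matrices, and each of the 8 genes had a smaller part of its own UMIs there. For *Cd209a* 2.56% of its UMIs came from tabled cDC1s, for *Cd209d* 0.900%, for *Cd209e* 6.86%, for *Cd300a* 11.8% and for *Clec4b1* 4.11%. *Itgam* had 1.27% of its UMIs in the table, *Sirpa* 0.801% and *Clec4a1* 0.994%. Transcripts of the 8 genes thus came mostly from cells that were not tabled as cDC1s, and the levels within the table were low for most of them. In the table *Cd209a* reached 25.5, 26.3 and 22.9 CPM in the 3 libraries, *Itgam* 9.40, 7.55 and 8.94 CPM and *Sirpa* 3.67, 2.72 and 2.89 CPM. *Cd300a*, at 76.8, 80.6 and 63.4 CPM, was lowest in the *sGsn-/- Clec9a-/-* library, as were *Cd209a*, *Cd209d* and *Cd209e*. *Cd209d* gave 1.87, 2.29 and 1.12 CPM, *Cd209e* 2.08, 1.99 and 1.07 CPM, *Clec4a1* 1.78, 0.679 and 1.40 CPM and *Clec4b1* 11.5, 9.17 and 11.2 CPM. *Itgam*, *Sirpa*, *Clec4a1* and *Clec4b1* were lowest in the *sGsn-/-* library, and every gene was found in all 3 libraries.

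Within the table *Cd209a* was concentrated in cluster 4, which held 512 cells (194, 169 and 149 by library) and 60.7% of the table's *Cd209a* UMIs for 8.18% of all its UMIs. Cluster 4 gave 540, 327 and 312 *Cd209a* UMIs, or 209.8 (95% interval 192.5–228.3), 162.3 (145.2–180.9) and 176.8 (157.7–197.5) CPM, against 9.70, 13.6 and 9.08 CPM in the remaining cDC1s of the same library. All 3 libraries were high in cluster 4 and low outside it, without overlap, and the ratios were 21.6, 11.98 and 19.5. Cluster 10, with 76 cells (21, 27 and 28 by library), gave 31, 139 and 22 *Cd209a* UMIs, or 109.8 (74.6–155.9), 447.9 (376.5–528.8) and 73.6 (46.2–111.5) CPM. Here the *sGsn-/-* library stood far above the others, and all 3 exceeded the 24.7, 20.6 and 22.1 CPM of the remaining cDC1s. Across the 12 clusters the mean ran from 210.5 ± 206 CPM (mean ± SD of the 3 libraries) in cluster 10 and 183 ± 24.4 CPM in cluster 4 to 2.49 ± 0.888 CPM in cluster 2. Clusters 10, 4 and 11 (114.2 ± 142 CPM) did not differ beyond that spread, and cluster 11 rested on 3, 0 and 8 UMIs in 60 cells. Cluster 1 followed at 19.6 ± 3.53 CPM, not apart from cluster 7 at 16.4 ± 1.83 CPM, and the remaining clusters lay below 9 CPM.

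*Cd209d* and *Cd209e* were rarer and also had their highest means in clusters 4 and 10. *Cd209d* gave 24, 32 and 11 UMIs in cluster 4, or 9.33 (5.98–13.9), 15.9 (10.9–22.4) and 6.23 (3.11–11.2) CPM, against 1.23, 1.02 and 0.660 CPM in the other cDC1s. Every library was higher in cluster 4, by ratios of 7.59, 15.6 and 9.45. In cluster 10 *Cd209d* had only 1, 2 and 0 UMIs, and its mean of 3.33 ± 3.23 CPM lay between cluster 4 (10.5 ± 4.93 CPM) and the remaining clusters without standing apart from either. *Cd209e* gave 50, 21 and 22 UMIs in cluster 4, or 19.4 (14.4–25.6), 10.4 (6.45–15.9) and 12.5 (7.81–18.9) CPM, against 0.598, 1.21 and 0.0507 CPM elsewhere. Few cells carried these UMIs: 3 of 169 cells held 21 of the 32 *Cd209d* UMIs in the *sGsn-/-* library, and 1 wild-type cell held 16 of the 50 *Cd209e* UMIs. For *Cd209e* the libraries did not overlap between cluster 4 and the other cDC1s, with ratios of 32.5, 8.64 and 246 (39.7–10139), the last resting on 1 UMI outside the cluster. Cluster 10 gave 1, 16 and 1 *Cd209e* UMIs, so its level of 51.6 CPM in the *sGsn-/-* library was not shared by the other libraries, at 3.54 and 3.35 CPM. Against the other cDC1s its ratios there were 1.71 (0.0427–9.88), 38.7 (19.8–72.9) and 3.22 (0.0781–19.9), so only the *sGsn-/-* library stood clear of 1. No *Cd209e* UMI was found in clusters 2, 3, 9 and 11.

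*Itgam*, *Sirpa* and *Clec4a1* also rose in cluster 4. In cluster 10, with 6, 2 and 1 UMIs of these genes, no rise was seen. Those counts were too few to exclude one for *Sirpa* and *Clec4a1*. In the *sGsn-/-* library the intervals on their ratios in cluster 10 reached 6.87 and 19.4. *Itgam* gave 46.6 (38.7–55.8), 28.8 (21.9–37.2) and 38.0 (29.4–48.2) CPM in cluster 4 against 6.21, 5.57 and 6.34 CPM in the other cDC1s. All libraries were higher in cluster 4, and cluster 11, at 55.2 ± 11.8 CPM from 2, 4 and 2 UMIs, did not differ from it beyond the spread. Cluster 1 came next at 11.97 ± 0.714 CPM, and the lowest level was 3.45 ± 1.56 CPM in cluster 5. *Sirpa* gave 14.8 (10.4–20.3), 13.4 (8.83–19.5) and 18.1 (12.4–25.6) CPM in cluster 4 against 2.72, 1.72 and 1.52 CPM, again without overlap of the libraries. Its mean in cluster 4 (15.4 ± 2.44 CPM) fell to 12.4 CPM once the highest doublet scores were left out. The means of clusters 11 and 8 did not differ from it beyond their spread. Cluster 11, at 11.4 ± 19.8 CPM in 60 cells, ran from 0 to 34.2 CPM between libraries and was too sparse to place. *Clec4a1* gave 28, 10 and 18 UMIs, or 10.9 (7.23–15.7), 4.96 (2.38–9.13) and 10.2 (6.05–16.1) CPM, in cluster 4 against 0.997, 0.278 and 0.609 CPM. Cluster 4 stood alone for *Clec4a1*, at 8.68 ± 3.24 CPM, with cluster 8 next at 1.94 CPM.

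*Clec4b1* followed another order within the table. It was highest in cluster 9, with 36, 14 and 18 UMIs or 34.6, 25.2 and 26.6 CPM, a mean of 28.8 ± 5.03 CPM that stood apart from cluster 3 at 15.4 ± 2.40 CPM. Clusters 3, 2, 4, 0 and 5 could not be told apart, and the lowest level was 1.92 ± 0.771 CPM in cluster 1. In cluster 4 it gave 10.1, 12.9 and 16.4 CPM against 11.6, 8.82 and 10.7 CPM in the other cDC1s, with ratios of 0.871 (0.561–1.30), 1.46 (0.932–2.21) and 1.53 (1.003–2.27). The wild-type library was lower in cluster 4 and both others were higher, so the libraries overlapped.

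*Cd300a* was spread over all clusters and was highest where *Cd209a* was. Cluster 4 gave 639, 460 and 346 UMIs, or 248.3 (229.4–268.3), 228.3 (207.9–250.1) and 196.05 (175.9–217.8) CPM, against 62.1, 66.8 and 51.5 CPM in the other cDC1s. The libraries were all higher in cluster 4, by ratios of 3.997, 3.42 and 3.81. Cluster 10 gave 36, 93 and 30 UMIs, or 127.6 (89.4–176.6), 299.7 (241.9–367.1) and 100.4 (67.8–143.3) CPM, against 76.3, 77.7 and 62.9 CPM. All libraries were higher in cluster 10, and the *sGsn-/-* library exceeded both others there. Clusters 4 (224.2 ± 26.4 CPM), 10 (175.9 ± 108 CPM) and 11 (175.1 ± 34.6 CPM) did not differ beyond the spread, followed by cluster 1 at 80.01 ± 12.02 CPM. Cluster 7, at 44.7 ± 10.2 CPM, stood above cluster 8, which was lowest at 20.2 ± 10.4 CPM.

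**Figure D1:**
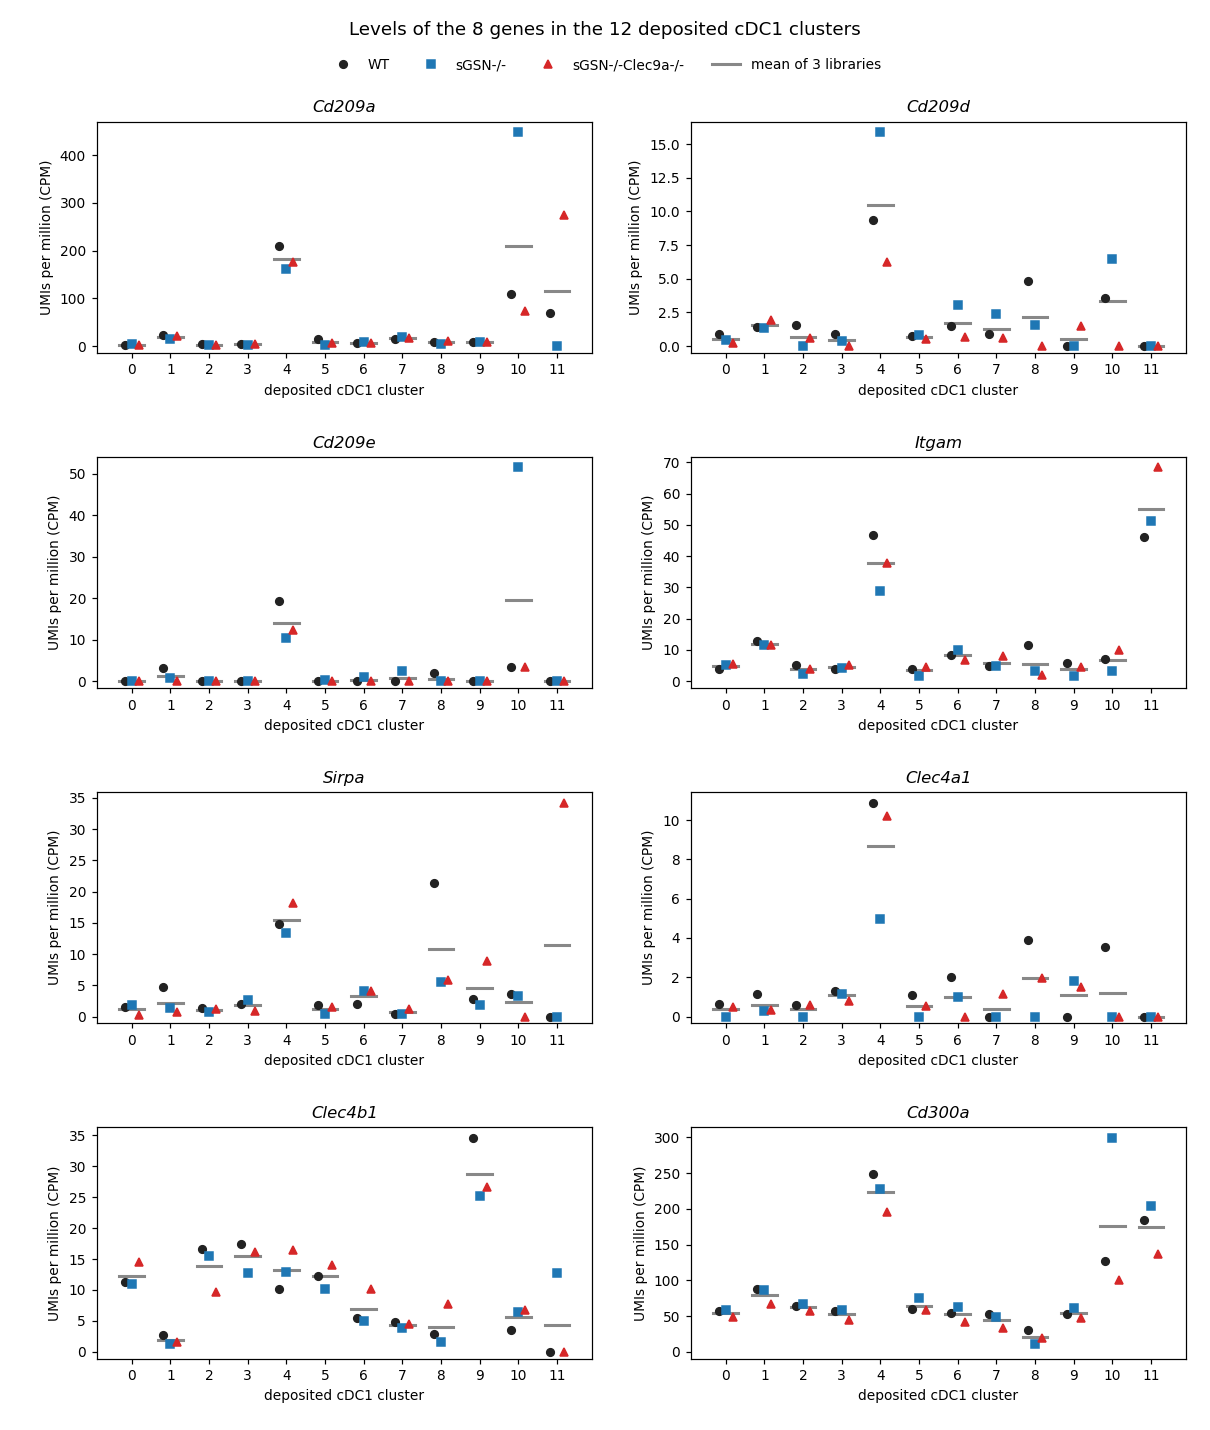
Levels of the 8 genes by deposited cDC1 cluster: horizontal axes show cluster number and vertical axes the level in CPM, with 1 point per library and a grey line at the mean. *Cd209a* and *Cd300a* are high in clusters 4 and 10, *Cd209e* is high in cluster 10 only in the *sGsn-/-* library, and *Clec4b1* is highest in cluster 9.

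Sums of cluster 4 were compared with sums of the other cDC1s, 1 sum per library on each side. The clusters themselves stem from these counts, so p values give no independent support for them. The p values only set each difference against the spread between libraries, which also differ in genotype. Of the 8 genes 7 were higher in cluster 4, where 11.5% of the 10888 genes tested were called higher and 12.3% lower, and their median log2 fold change was 3.09 against −0.00 for all genes. By edgeR's quasi-likelihood test, adjusted after Benjamini and Hochberg, *Cd209a* rose by a log2 fold change of 4.04 ± 0.14 (estimate ± SE; adjusted p = 1.1e-08), in 3 of 3 libraries. *Cd209d* rose by 3.33 ± 0.35, *Cd209e* by 4.45 ± 0.50, *Itgam* by 2.60 ± 0.17, *Sirpa* by 2.85 ± 0.26, *Clec4a1* by 3.66 ± 0.44 and *Cd300a* by 1.84 ± 0.10. These 6 genes rose in every library too, whereas *Clec4b1* changed by 0.24 ± 0.21 (adjusted p = 0.46) and split between libraries. Leaving out the *sGsn-/-* library moved *Cd209e* in cluster 4 from 4.45 to 5.36, and thinning the cells moved *Sirpa* from 2.85 to 2.17. Over all genes 1252 were higher and 1343 lower, or 1526 and 1078 without TMM factors.

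In cluster 10 *Cd209a*, *Cd209e* and *Cd300a* were higher, 3 of the 8 genes tested, where 3.74% of 10635 genes were called higher and 3.76% lower. The 8 genes had a median log2 fold change of 0.28 against −0.12 for all genes. *Cd209a* rose by 3.18 ± 0.40 in 3 of 3 libraries (adjusted p = 1.0e-04 by edgeR's quasi-likelihood test, adjusted after Benjamini and Hochberg), *Cd209e* by 3.65 ± 0.79 and *Cd300a* by 1.23 ± 0.25. The *sGsn-/-* library carried much of this: without it *Cd209a* rose by 1.86, *Cd300a* by 0.61 (adjusted p = 0.145) and *Cd209e* by 0.99 (adjusted p = 0.78). *Cd209e* was also no longer called when the *sGsn-/- Clec9a-/-* library was left out, at 3.95 and an adjusted p of 0.0518, and without the wild-type library it rose by 4.48. Across all alternatives the adjusted p ran from 2.6e-10 to 0.78 for *Cd209e* and from 2.2e-12 to 0.145 for *Cd300a*. *Itgam*, *Sirpa*, *Clec4a1* and *Clec4b1* fell by 0.44 ± 0.56, 0.55 ± 0.96, 0.30 ± 1.69 and 0.999 ± 0.58 on 6, 2, 1 and 5 UMIs in the cluster, and *Cd209d* rose by 0.87 ± 1.03. None of these 5 changes was distinguished from 0, with adjusted p from 0.36 to 0.96. Genes called higher and lower in cluster 10 numbered 398 and 400, or 433 and 276 without TMM factors, 715 and 356 by DESeq2, and 254 lower with the library as a block.

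Markers of several cell types moved in cluster 4 as well, and their part in the result was not tested. Of the 6 cDC2 markers 4 were higher in all 3 libraries, with summed levels of 121, 132 and 196 CPM against 84.1, 82.1 and 71.9 CPM, and the most abundant, *H2-DMb2*, was level at 59.8 against 58.6 CPM. Of the 13 monocyte or macrophage markers 11 were higher, at 570.04, 457 and 576 CPM against 385, 329 and 352 CPM, led by *Ccr2* (307 against 277 CPM). None of these lists had a gene at 0, whereas 0 of 8 cDC1 markers were higher and their sum was 1310, 1345 and 1400 CPM against 2927, 2855 and 2947 CPM, led by *Naaa*. Activated cDC markers, led by *Ccl22*, were lower in cluster 4, at 19.8, 12.9 and 15.3 CPM against 247, 338 and 106 CPM. All libraries were higher for the cDC2 and the monocyte or macrophage lists and lower for the cDC1 and activated cDC lists. Cluster 4 held 51 of the table's 85 cells with top doublet scores (9.96% of its cells against 1.46% of the table).

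In cluster 10, 3 of the 6 cDC2 markers were higher in all 3 libraries (152, 168 and 117 CPM against 86.4, 85.2 and 81.6 CPM), led by *H2-DMb2*, with *Ccr6* at 0. The sum of the cDC2 list was raised in every library. Of the 13 monocyte or macrophage markers 1 was higher and their sum was lower, at 262, 222 and 234 CPM against 401, 341 and 372 CPM, led by *Ccr2*. The 8 cDC1 markers, led by *Naaa*, summed to 2406, 2320 and 2105 CPM against 2803, 2732 and 2830 CPM, with 1 higher. Activated cDC markers split by library in cluster 10, at 521, 48.3 and 73.6 CPM against 227, 314 and 98.7 CPM, higher only in the wild-type library, with *Fscn1* and *Cacnb3* at 0. Cluster 10 held 1 cell with a top doublet score (1.32%), and the part of these lists was not tested.

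Single cells of cluster 4 varied widely in *Cd209a*: 297 of the 512 had none, 65 had 1 UMI, 71 had 2 to 4 and 79 had 5 or more. Those 79 cells held 919 of the 1179 UMIs (77.9%), the highest 52 cells held 64.8%, and the maximum was 36 UMIs. The variance was 10.96 times the mean (12.6, 10.9 and 8.10 by library), against 2.76 for *Cd300a*, which was found in 417 cells with a median of 2 UMIs. *Cd209a* was thus unevenly spread in each library, whereas *Cd300a* was present at low counts in most cells. Cells with a *Cd209a* UMI made up 42.0% of cluster 4 (37.7–46.4%), or 45.4% (38.2–52.6%), 36.1% (28.9–43.8%) and 44.3% (36.2–52.7%) by library. The libraries' intervals overlapped.

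Background was read from 3387 NK cell-like barcodes outside the table, with a median of 7639 UMIs against 11172 in cluster 4 and 11132.5 in cluster 10. Among NK cell-like barcodes 5.55% had a *Cd209a* UMI, and after thinning to 3900 UMIs the shares were 28.5% in cluster 4 and 2.78% in NK cell-like barcodes. *Cd300a* was found in 81.4% of cluster 4 and 5.26% of NK cell-like barcodes, and in 54.2% and 2.19% after thinning. *Cd209d* was found in 6.64% against 1.54% (thinned 2.75% and 0.583%) and *Cd209e* in 8.59% against 0.295% (thinned 4.22% and 0.0947%). All 4 genes exceeded the background in cluster 4 at equal depth. *Sirpa* was found in 12.5% of cluster 4 against 3.87% (thinned 4.07% and 1.60%), *Clec4a1* in 7.62% against 1.21% (2.79% and 0.355%) and *Clec4b1* in 12.7% against 1.80% (5.20% and 0.760%). *Itgam* was found in 27.9% of cluster 4 (thinned 11.2%), and NK cell-like barcodes give no background for it, since NK cells carry CD11b.

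Cells of cluster 4 with more *Cd209a* also carried more *Cd209d* and *Cd209e*. From the 297 cells without *Cd209a* over the 136 with 1 to 4 UMIs to the 79 with 5 or more, *Cd209d* went from 1.47 over 14.8 to 29.3 CPM. *Cd209e* went from 4.12 over 15.4 to 41.9 CPM, *Cd300a* from 198 over 242 to 287 CPM and *Sirpa* from 9.996 over 16.6 to 27.7 CPM. In pooled cells these 4 genes rose at each step, but *Sirpa* did not at the lower step in the wild-type library nor *Cd300a* at the upper step in the *sGsn-/- Clec9a-/-* library. *Clec4b1* went from 10.9 over 14.2 to 15.8 CPM in pooled cells, but no library rose at both steps. In the wild-type library it fell at the lower step (8.38 to 7.37 CPM). At the upper step it fell in the *sGsn-/-* (14.3 to 13.9 CPM) and *sGsn-/- Clec9a-/-* libraries (23.1 to 15.6 CPM). *Itgam* (33.2, 31.4 and 62.5 CPM) was raised only in the highest group. So was *Clec4a1* in pooled cells (7.35, 5.92 and 16.6 CPM), but not in the *sGsn-/- Clec9a-/-* library (7.58, 13.4 and 12.4 CPM). Markers of cDC2s summed to 97.0, 155 and 262 CPM in the same order, with *Clec10a* at 12.9, 37.3 and 95.8 CPM. In pooled cells *Cd7* rose from 40.0 over 68.1 to 82.3 CPM, but in the *sGsn-/-* library it fell at the upper step (87.8 to 49.9 CPM). Markers of cDC1s stayed level at 1339, 1361 and 1345 CPM, and *Xcr1* UMIs were found in 22.2%, 17.6% and 32.9% of these groups. Top doublet scores were held by 7.74%, 7.35% and 22.8% of these groups, whose median depths were 10989, 10893 and 13362 UMIs, and the part of doublets in the cDC2 markers was not tested. Of cells with *Cd209e* 36 of 44 also had *Cd209a*, and of cells with *Cd209d* 29 of 34.

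In cluster 10 *Cd209a* was again held by a minority of cells: 47 of the 76 had none, 8 had 1 UMI, 6 had 2 to 4 and 15 had 5 or more. Those 15 cells, 4, 10 and 1 by library, held 88.5% of the 192 UMIs, with a maximum of 23 and a variance of 11.1 times the mean. In the *sGsn-/-* library its 10 such cells held 134 of 139 UMIs (96.4%), so its high *Cd209a* level came from a minority of the 27 cells. Cells with a *Cd209a* UMI made up 38.2% of cluster 10, or 33.3%, 51.9% and 28.6% by library, and 28.4% after thinning, against 5.55% and 2.78% of NK cell-like barcodes. *Cd300a* was found in 61.8% (thinned 41.1%) and *Cd209e* in 10.5% (thinned 5.43%), against 5.26% and 0.295% of NK cell-like barcodes (thinned 2.19% and 0.0947%). All 3 genes lay above the background, and the 8 cells with *Cd209e* all had *Cd209a* and *Cd300a*.

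The 15 cells of cluster 10 with 5 or more *Cd209a* UMIs differed from the 47 without any in *Xcr1* and in the sum of cDC1 markers. *Xcr1* was found in 0 of these 15 cells and in 29 of the 47. *Clec9a*, read only in the libraries that carry the gene, was found in 1 of 4 wild-type and 8 of 10 *sGsn-/-* cells with 5 or more *Cd209a* UMIs, against 9 of 14 and 8 of 13 without any, and so did not differ in a common direction. *Cd300a* reached 545 against 85.0 CPM and *Cd209e* 99.8 CPM against none. Markers of cDC1s summed to 1596 against 2562 CPM, while cDC2 markers, at 120 against 156 CPM, were not raised. In cluster 4 *Xcr1* was found in 26 of 79 cells with 5 or more *Cd209a* UMIs (32.9%) and in 66 of 297 without any, and cDC2 markers rose with *Cd209a*. In the *sGsn-/-* library alone the 10 cells of cluster 10 had *Xcr1* in 0 of 10 and *Cd300a* at 627 CPM.

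**Figure D2:**
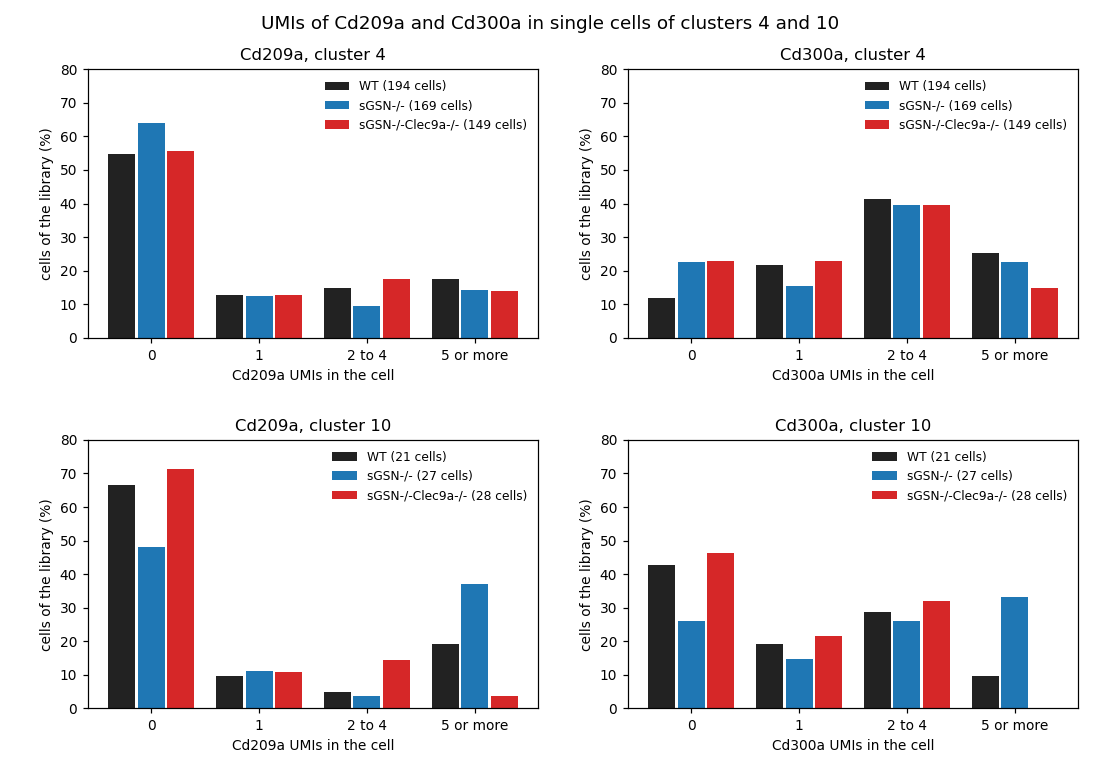
Spread of *Cd209a* and *Cd300a* over single cells of clusters 4 and 10: the horizontal axis shows UMIs of the gene in a cell (0, 1, 2 to 4, 5 or more) and the vertical axis the percentage of a library's cells, with 1 bar per library. *Cd209a* has its largest bar at 0 in every library beside a tail of 5 or more UMIs, which is largest in cluster 10 of the *sGsn-/-* library.

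Outside the table the cDC2-like class held 3890 barcodes (2090, 759 and 1041 by library). *Cd209a* reached 379, 417 and 409 CPM in them, *Itgam* 192, 186 and 182 CPM and *Sirpa* 112, 114 and 108 CPM. These levels were alike in the 3 libraries, and each exceeded every library's level in the tabled cDC1s. *Clec4a1* gave 30.8, 25.9 and 30.5 CPM, *Clec4b1* 15.0, 16.2 and 18.2 CPM and *Cd300a* 214, 203 and 192 CPM. *Cd209d* gave 19.8, 21.6 and 19.96 CPM, again above the table in all libraries, whereas *Cd209e*, at 1.19, 1.14 and 0.471 CPM, was below it in each of the 3, although the ranges of the libraries overlapped. Among cDC2-like barcodes 64.5% had a *Cd209a* UMI (thinned 49.5%), 80.8% *Itgam* (47.4%) and 72.1% *Sirpa* (34.3%), at a median of 13648.5 UMIs.

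The cDC2-like class was not the highest for any of the 8 genes. *Cd209a* was highest in the pre-cDC-like class (686.6 ± 43.0 CPM), followed by the cDC2-like (401.6 ± 19.9 CPM), plasmacytoid-like (316.9 ± 9.46 CPM) and monocyte or macrophage-like classes (188.7 ± 11.9 CPM), each apart from the next. *Cd209d* was highest in the plasmacytoid-like class (581 ± 27.8 CPM) and then in the pre-cDC-like class (291 ± 39.8 CPM). *Cd209e* was highest in the pre-cDC-like class (49.1 ± 16.3 CPM), with 41.2, 67.8 and 38.2 CPM by library. The cDC2-like class, at 0.932 CPM, lay below the cDC1-like and plasmacytoid-like classes for *Cd209e*. *Itgam* was highest in the monocyte or macrophage-like class (291.8 ± 5.89 CPM), followed by the cDC2-like class (186.5 ± 5.13 CPM), and *Sirpa* likewise (158.8 ± 8.33 and 111.2 ± 3.11 CPM). *Clec4a1* (62.5 ± 9.10 CPM) and *Clec4b1* (146.2 ± 12.9 CPM) were also highest in the monocyte or macrophage-like class, and for both the cDC2-like class did not differ from the activated cDC-like class beyond the spread. *Cd300a* was highest in the pre-cDC-like class (491.3 ± 49.0 CPM), followed by the cDC2-like class (203.1 ± 11.3 CPM). *Itgam*, *Sirpa*, *Clec4a1* and *Clec4b1* were thus not transcripts of cDC2-like barcodes alone. *Clec4b1* had 82.7% of all its UMIs in the monocyte or macrophage-like class, *Clec4a1* 70.2%, *Itgam* 62.6% and *Sirpa* 59.9%.

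Classes were not uniform. Among the monocyte or macrophage-like barcodes a cluster of 1840, led by *Retnla*, *Lpl* and *Ear2* and carrying 3 cDC2 markers, reached 339 CPM of *Cd209a*, 369 CPM of *Itgam* and 302.05 CPM of *Clec4b1*. A cDC1-like cluster with 474 barcodes outside the table, led by *Ifit3*, *Cxcl9* and *Ifit2*, carried 8 cDC1 and 6 monocyte or macrophage markers and reached 423 CPM of *Cd209a*. At the coarsest and finest clusterings the cluster led by *Ifit3* was named monocyte or macrophage-like, with 0 cDC1 markers, and the finest took *Cd209a* in the cDC1-like class from 94.1 to 60.7 CPM. The pre-cDC-like class (2668 barcodes outside the table) also carried 2 plasmacytoid and 2 cDC2 markers, and its means depended on the clustering. The finest clustering kept 1235 barcodes as pre-cDC-like, with 4 cDC2 beside 3 pre-cDC markers, and left a cluster of 1551 led by *Cd7* unnamed. There the mean rose from 291 to 444 CPM for *Cd209d* and fell from 76.2 to 44.5 CPM for *Itgam*.

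**Figure D3:**
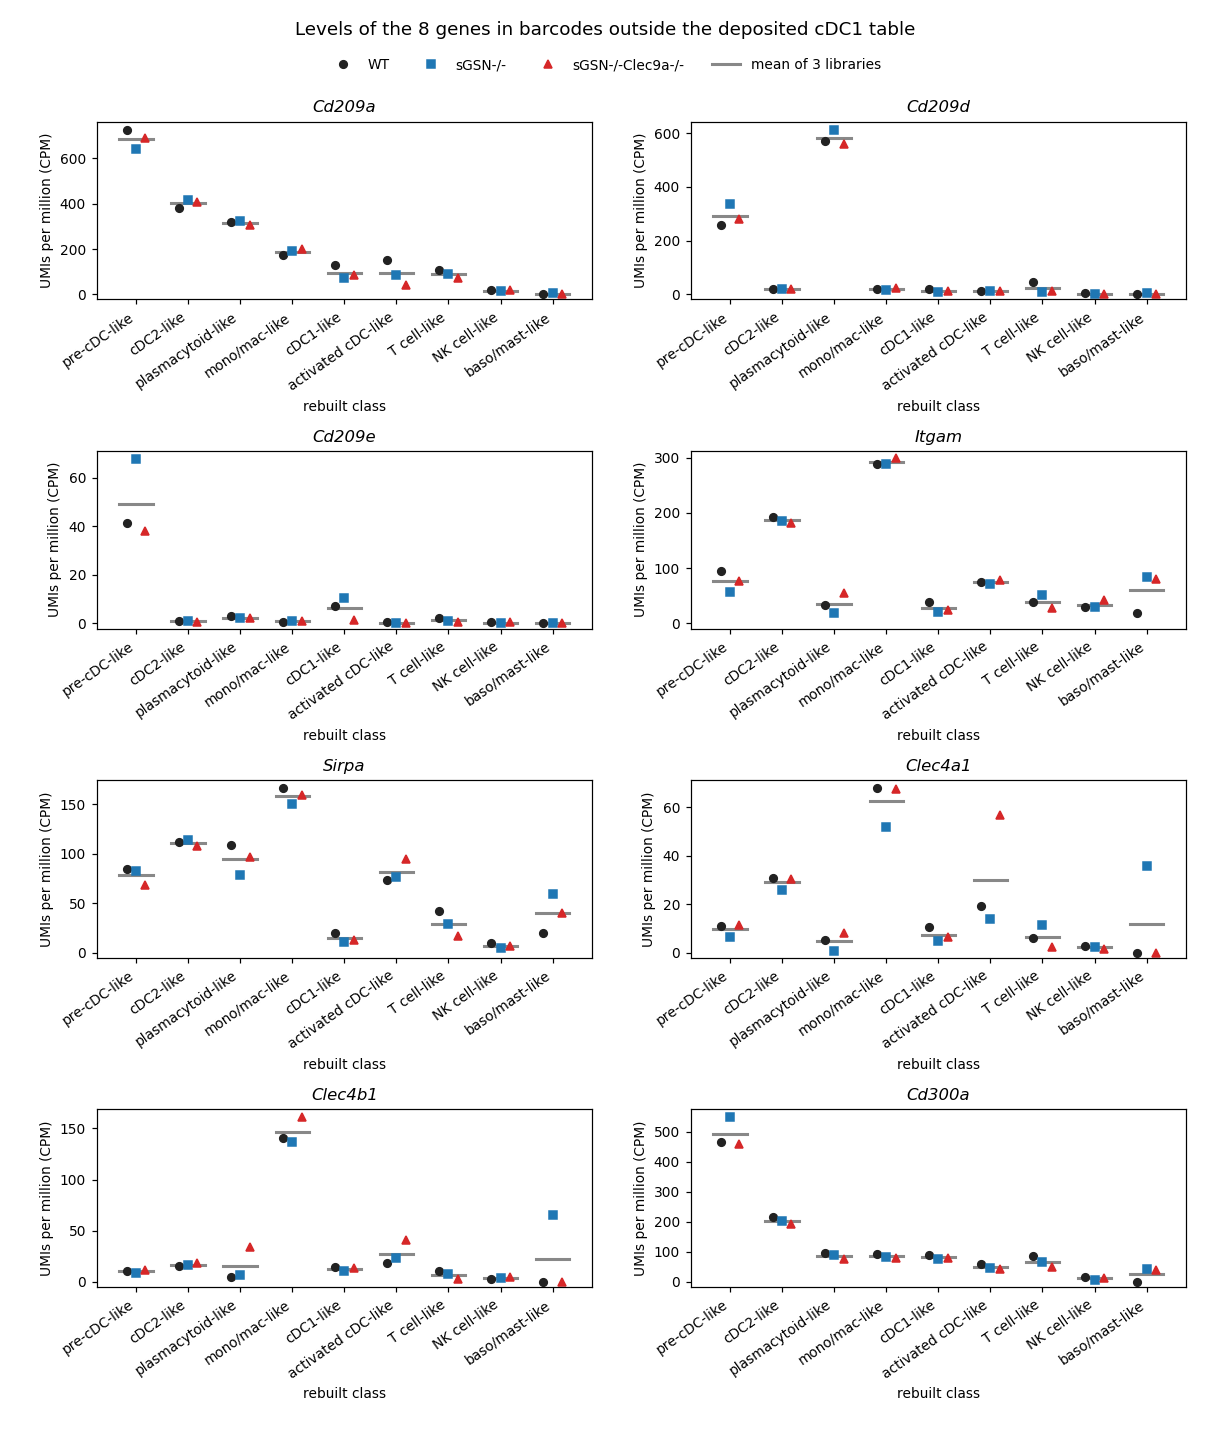
Levels of the 8 genes in barcodes outside the cDC1 table: horizontal axes show the rebuilt class and vertical axes the level in CPM, with 1 point per library and a grey line at the mean. *Cd209a*, *Cd209e* and *Cd300a* are highest in the pre-cDC-like class, and *Itgam*, *Sirpa*, *Clec4a1* and *Clec4b1* in the monocyte or macrophage-like class.

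Set against the tabled cDC1s, cDC2-like barcodes had 7 of the 8 genes higher and 1 lower, where 31.9% of the 12107 genes tested were called higher and 31.2% lower. The median log2 fold change of the 8 genes was 3.75 against 0.01 for all genes. Cells for the cDC2 gate were sorted on SIRPα and the authors annotated cDC2s by *Itgam* and *Sirpa*, so the contrast partly restates how the tabled cDC1s were chosen. Its p values only set each difference against the spread between libraries, which also differ in genotype. *Sirpa* rose by 5.13 ± 0.09 in 3 of 3 libraries, *Clec4a1* by 4.45 ± 0.19, *Itgam* by 4.42 ± 0.08, *Cd209a* by 4.001 ± 0.07 and *Cd209d* by 3.50 ± 0.15. *Cd300a* rose by 1.45 ± 0.07 and *Clec4b1* by 0.61 ± 0.12, the smallest rise of the list. *Cd209e* fell by 0.83 ± 0.32 in 3 of 3 libraries (adjusted p = 0.042 by edgeR's quasi-likelihood test, adjusted after Benjamini and Hochberg), and over the alternatives its adjusted p ran from 0.00465 to 0.122. It was not called without TMM factors, by DESeq2, without top doublet scores, without the wild-type library or without the *sGsn-/-* library.

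Relatives of the 8 genes were read as lists beside them. In cluster 4, where 11.5% of all genes were called higher and 12.3% lower with a median log2 fold change of −0.00, 3 of 4 tested CLEC4 relatives were higher (median 1.87), with *Clec4a3* at 3.15 ± 0.41, *Clec4n* at 2.32 ± 0.32 and *Clec4a2* at 1.42 ± 0.32. Of 5 tested CD300 relatives 2 were higher (3 with the library as a block) and 1 lower (median 0.53, or 1.21 without the *sGsn-/-* library and 1.41 without the low-count filter), with *Cd300ld* at 2.02 ± 0.39, *Cd300lf* at 1.45 ± 0.24 and *Cd300c2* at −0.42 ± 0.12. Leaving out the wild-type library left 2 CLEC4 and 1 CD300 relative higher, leaving out top doublet scores left 1 CD300 relative higher, and thinned cells left 1 of 3 CLEC4 and 0 of 4 CD300 relatives higher. *Cd300c2* was no longer lower without the wild-type or the *sGsn-/-* library. Among 4 tested integrin and SIRP relatives *Itgax* was higher (0.83 ± 0.11) and *Itgal* lower (−0.54 ± 0.12), and their median gave no direction, at −0.00, 0.06 without TMM factors or 0.89 without the low-count filter. Of 6 signalling partners 4 were higher and 1 lower (median 0.42), with *Fcer1g* at 0.85 and *Inpp5d* at −0.31, the latter not called without the wild-type or the *sGsn-/-* library. No CD209 relative had enough counts for a test in either cluster.

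In cluster 10, where 3.74% of all genes were called higher and 3.76% lower with a median of −0.12, the 4 tested CLEC4 relatives had log2 fold changes from −2.03 to 0.45 (median 0.16; adjusted p from 0.39 to 0.98), and the median became −0.82 without the *sGsn-/-* library. *Cd300lf* rose by 2.81 ± 0.35 and *Cd300c2* fell by 1.47 ± 0.21, so 1 of 5 CD300 relatives was higher and 1 lower (median −1.47). *Itgb2* was lower (−0.69 ± 0.13), 1 of 4 integrin and SIRP relatives (median −0.08, or −2.40 without the low-count filter), and was not called in thinned cells or without the *sGsn-/-* or the *sGsn-/- Clec9a-/-* library, while DESeq2 called 1 of these relatives higher and 1 lower. The 6 signalling partners had a median of −0.10, with an adjusted p of at least 0.31 each. *Cd300lf* was higher in both clusters and *Cd300c2* lower in both, but with thinned cells *Cd300lf* was not called higher in either.

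In cDC2-like barcodes, where 31.9% of all genes were called higher and 31.2% lower, all 6 tested CLEC4 relatives were higher (median 4.58), with *Clec4n* at 6.08, and so were both tested CD209 relatives, with *Cd209c* at 4.04 (median 4.41, or 6.23 without the *sGsn-/-* library). Without the low-count filter 2 of 4 CD209 relatives were higher (median 1.81), and of 7 CLEC4 relatives 6 were higher and 1 lower. Of 7 CD300 relatives 5 were higher and 2 lower (median 2.18), with *Cd300ld* at 4.43 and *Cd300c* at −3.13. Of 7 integrin and SIRP relatives 4 were higher (5 with the library as a block) and 2 lower (median 2.50), with *Sirpb1a* at 5.97, *Itgax* at 2.50 and *Itgal* at −3.65. Of 6 signalling partners 4 were higher and 2 lower (median 0.85). All genes had a median of 0.01, and the medians of the lists cannot be set beside those of cluster 4, since fewer relatives had enough counts there.

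Genes whose levels ran most alike were ranked over 36 sums of cluster and library, for genes with enough UMIs in the table. *Cd209a* was most like *Fcgr3* (Pearson's r of log2 levels 0.836) and *Aopep* (0.796). *Cd209e* followed at 0.745, although its own level lay below the limit set for the ranked genes, from which the 8 genes were exempt. *Itgam* was most like *Ssh2* (0.830), *Sirpa* like *Ccl9* (0.8003) and *Clec4b1* like *Ccl6* (0.841). For *Clec4b1* and *Cd209a* it was −0.388 over these sums and 0.409 over the rebuilt clusters below. Over 64 sums of rebuilt cluster and library *Cd209a* was most like *Clec10a* (0.886), *Itgam* like *Hcar2* (0.897), *Sirpa* like *Ctsa* (0.941), *Cd300a* like *Tep1* (0.860) and *Clec4b1* again like *Ccl6* (0.884). *Ccl6* thus led for *Clec4b1* in both rankings.

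Each genotype had 1 pooled library, so animals were not separated and the high *Cd209a* level of cluster 10 in the *sGsn-/-* library cannot be told apart from a difference between pools. Rebuilt classes rest on marker transcripts alone, and surface proteins were not analysed here.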

How the data were processed

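The deposited values are the UMI counts that the authors obtained with Cell Ranger, for all called barcodes of 3 libraries, beside their table of 5806 cDC1s with cluster numbers. Levels are a gene's UMIs scaled to all UMIs of the same barcodes (CPM), with exact Poisson intervals, and shares have exact binomial intervals. Of 30209 barcodes 28855 were kept for rebuilt classes, after removing 54 with under 200 genes and 1300 with over 16.7% mitochondrial UMIs. The 8 genes and all lists of relatives and markers were chosen with earlier results of these data known. Rebuilt classes came from Leiden clustering (scanpy 1.11.5) on 2000 variable genes without the 8 genes. A cluster was named only for a cell type with at least 3 markers raised, and clusters with over 50% doublets stayed unnamed. Some other clusters with 3 or more markers of a type also stayed unnamed, such as a cluster of 1262 barcodes with 8 cDC1 markers. The T cell-like cluster carried 5 NK cell markers beside 4 T cell markers. Doublets were the top 6% of Scrublet scores in each library, because the automatic threshold called 596, 2 and 660. Thinned shares are those expected after drawing 3900 UMIs from each deep enough cell.

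Sums per library were compared with edgeR 4.0.16 (quasi-likelihood, TMM, filterByExpr, adjusted p below 0.05) in R 4.3.3. Both sums of a library come from 1 pool, which the test left aside, and the correlations of their deviations from the mean of their side were 0.149, 0.0972 and 0.124 for cluster 4, 0.0514, 0.0131 and 0.0788 for cluster 10 and 0.241, 0.199 and 0.204 for cDC2-like barcodes, each library being most like itself. Likeness is Pearson's r of log2(CPM + 1), for genes of the list with at least 200 UMIs in the table, and the 3 highest genes were ranked. The pre-cDC marker list, some single markers and the cDC1 ranking of *Cd300a* are not reported. Alternatives were library size alone, DESeq2 1.42.0, no low-count filter, the library as a block, no doublets, thinned cells and a library left out. Shares were also taken without thinning and after thinning to 2000 UMIs, and classes at Leiden resolutions of 0.5 and 2 in place of 1. Counts in the table and matrices were equal for 4559 cells and differed for 1247, by 34 UMIs at most. Barcode sequences occurring in another library numbered 54, 53 and 55 and were kept.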

Additional observations from a re-analysis of the deposited data

How the results depend on the processing

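No gene count and no called change of the 8 genes was reversed, whereas the median of the CLEC4 relatives in cluster 10 went from 0.16 to −0.82 without the *sGsn-/-* library, −0.97 without the low-count filter and −6.87 in thinned cells, where 1 relative was tested. In cluster 4 thinned cells gave 792 genes higher and 874 lower in place of 1252 and 1343, and leaving out a library gave 614 to 880 higher and 631 to 1104 lower. In cluster 10 DESeq2 gave 715 genes higher in place of 398, thinned cells gave 184 higher and 250 lower, the block gave 254 lower in place of 400, and leaving out a library gave 188 to 206 higher and 128 to 154 lower.

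Of the fits of single genes 1 of 24 became weaker without TMM factors, 1 of 24 without top doublet scores and 1 of 23 by DESeq2, each time *Cd209e* in cDC2-like barcodes. Leaving out a library weakened 5 of 71 fits, namely *Cd209e* in cluster 10 without the *sGsn-/-* or the *sGsn-/- Clec9a-/-* library, *Cd300a* in cluster 10 without the *sGsn-/-* library, and *Cd209e* in cDC2-like barcodes without the wild-type or the *sGsn-/-* library. The block changed no call among the 8 genes. A level or share was counted as moved when it changed by more than the SD of the libraries. Against shares thinned to 3900 UMIs, leaving out the thinning moved 82 of 96 shares and thinning to 2000 UMIs moved 46. Of 96 levels by cluster, leaving out doublets moved 1, *Sirpa* in cluster 4. Of 72 levels by class, 8 moved at resolution 0.5 and 15 at resolution 2.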
